A study of Rattus norvegicus with 15 samples.

Results

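The first week of culture with all-trans retinoic acid (RA) was followed in H9c2 cells, a myoblast line from embryonic rat heart, by setting 3 cultures taken at day 7 with RA (T7+RA) against 3 cultures taken at day 0 (T0). These are 6 of the 15 RNA-seq libraries of the series. All 11574 genes of the count table entered the comparison. The 6 libraries are all those labelled day 0 or day 7 with RA, and the comparison was chosen with earlier results of these data known. T0 cultures were collected 24 h after seeding, in medium with 10% fetal bovine serum (FBS). FBS was then lowered to 1%, and 1 µM RA dissolved in DMSO was given every day in the dark until day 7. Elapsed time, serum level, RA and its solvent therefore differ together between T7+RA and T0 and cannot be told apart there. Another group of 3 cultures (T7-RA) spent the same 7 days in 1% FBS without RA, so T7+RA against T7-RA is the direct test of the RA treatment. Whether T7-RA cultures received DMSO was not given in the sources used here. All samples are labelled wild type, and every title names H9c2, while the cell line tag of the later samples holds names that count up from it. The libraries are replicate cultures of 1 cell line, so the p-values measure the spread between cultures and not between animals.

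Retinoic acid is the active form of vitamin A. It binds retinoic acid receptors, which sit on DNA as partners of retinoid X receptors, often at repeats of the letters AGGTCA, and turn on nearby genes, among them genes that remove RA or its precursors again. Myoblasts that lose serum leave the cell cycle, switch on MyoD-family factors and build the contractile units called sarcomeres, and RA is added to H9c2 cultures to direct this change towards a heart muscle type.

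Over the week with RA, 610 genes rose and 595 fell at an adjusted p under 0.001 in edgeR's quasi-likelihood test, which is 10.4% of the genes tested (5.27% raised, 5.14% lowered). Raised genes were 50.6% of these calls, and 60.2% (736 raised, 486 lowered) when libraries were scaled by their total counts alone in place of TMM. In what follows, raised and lowered mean that a gene passed this threshold. The change was at least 2-fold for 381 raised and 289 lowered genes, and at least 4-fold for 117 and 54. The median log2 fold change was 1.14 among raised genes, -0.99 among lowered genes and 0.01 over all genes. Of the 1205 genes, 1200 had T0 and T7+RA cultures whose levels did not overlap, against 35.3% of all genes tested. The week without RA, which is measured against the same T0 cultures, had 490 raised and 526 lowered genes (8.78% in all, 4.23% raised and 4.54% lowered). Between T7+RA and T7-RA, 216 genes were higher and 151 lower with RA (3.17% in all, 1.87% higher and 1.3% lower), and all 367 had cultures that did not overlap, against 24.4% of all genes tested. Counts of list members below are to be read beside these shares of all genes.

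**Figure D1:**
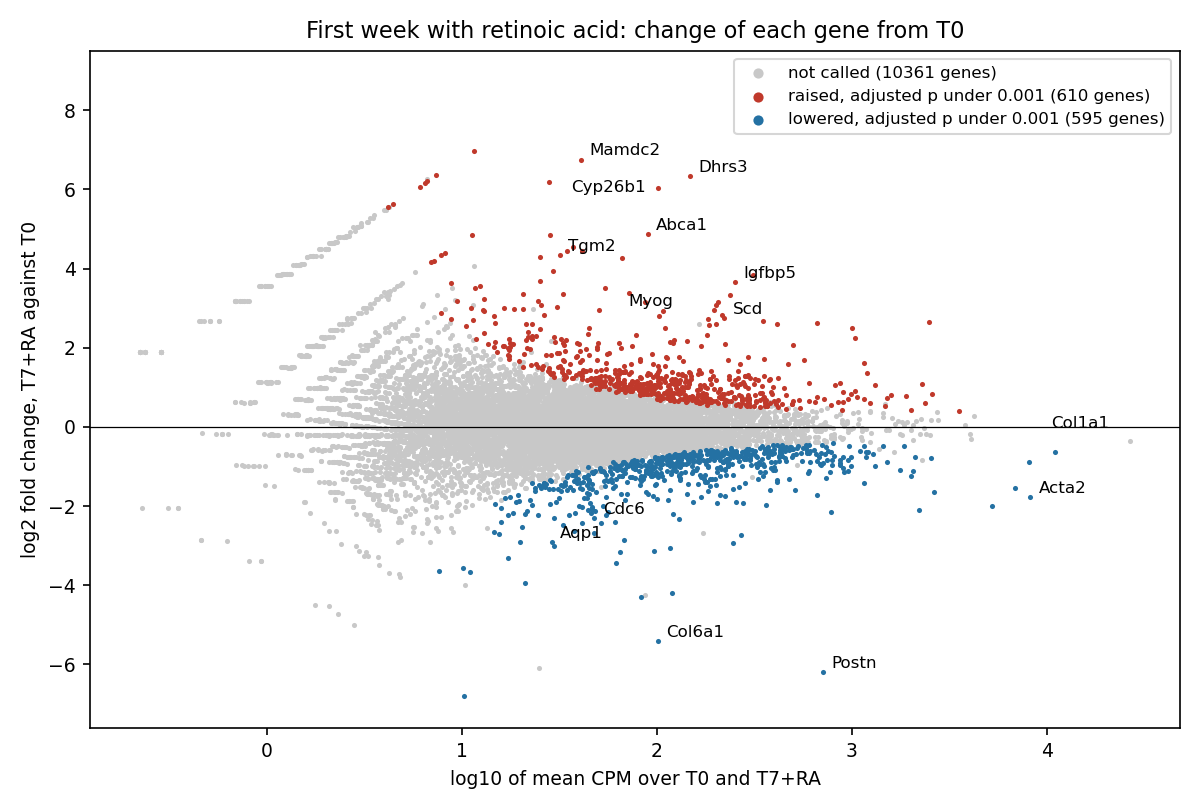
Each point is a gene, with the log10 of its mean level over the T0 and T7+RA cultures (CPM, counts per 1000000) on the x axis and its fitted log2 fold change, T7+RA against T0, on the y axis. The 610 raised genes (red) and 595 lowered genes (blue) lie above and below 0, with Dhrs3 at 6.33 and Postn at -6.19 among the labelled genes, and the 8 genes with no count in either group are not drawn.

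The libraries were shallow, which limits what low genes can show. T0 libraries held 508397 to 768431 counts, T7-RA libraries 666344 to 825712 and T7+RA libraries 585103 to 742925. Levels are given as CPM of the scaled library, so that 1 count is worth about 1 to 2 CPM. The cultures of a group are named by number, so that T0 2 is the second T0 culture. The T0 cultures differed more from each other than the T7+RA cultures did: the chi-square per gene between pairs of libraries was 2.06 to 3.09 in T0 and 1.15 to 1.27 in T7+RA. Part of that spread followed gene size. The 7510 genes with a mean of at least 20 CPM over these 9 libraries were split by size into 5 sets of 1502 genes. In the set with the smallest sizes, up to 1535 bases, T0 2 lay 0.28 above the other T0 libraries (median log2 ratio) and T0 3 lay below them (-0.24), while T7+RA libraries stayed within -0.03 and 0.02.

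Markers listed for each cell type were read first, to set the labelled cells against the data. Skeletal muscle markers were measured for 18 genes, of which 8 were raised and 1 was lowered, and their summed level went from 1386 to 1442 CPM in T0 to 2624 to 2967 CPM in T7+RA. Heart muscle markers had 11 measured members, 4 raised and 1 lowered, with sums of 1149 to 1529 CPM and 2328 to 2458 CPM. The raised members were Tnnt2, Tnnc1, Pln and Casq2. The median log2 fold change of heart markers was 0.20 (from -2.21 to 4.16), beside 2.67 for skeletal muscle markers, so most heart markers did not rise. The defining heart genes Myh6, Myh7, Nppa, Nkx2-5, Tnni3 and Ryr2 were not analysed here. Smooth muscle and myofibroblast markers went the other way, with 7 of 9 lowered and a sum of 17086 to 18792 CPM in T0 against 5209.9 to 5842 CPM in T7+RA. Of 6 fibroblast markers, Dcn and Col3a1 were raised and Thy1 was lowered, and a call was lost for Dcn without T0 1, T0 2, T0 3, T7+RA 2 or T7+RA 3 (adjusted p from 0.00297 to 0.0101), Col3a1 without T0 1, T0 2, T7+RA 2 or T7+RA 3 (adjusted p from 0.00113 to 0.00206) and Thy1 without T0 2 (adjusted p = 0.00116). Endothelial, leukocyte, adipocyte, cartilage and neural markers came to 9 measured genes together, of which Flt1 and Sox9 were lowered and none was raised. In bulk RNA, fewer cells of a type and less RNA per cell cannot be told apart.

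A pair of genes that limit RA supply were among the most raised genes. Dhrs3 (band 5q36), which reduces retinaldehyde back to retinol, was at 4.14, 1.88 and 4.19 CPM in T0, 7.16, 5.38 and 8.71 CPM in T7-RA and 298, 289 and 291 CPM in T7+RA. Every T7+RA culture lay far above every other culture, with 6 counts in T0 and 594 in T7+RA, a ratio of 84.6, with a 95% counting interval of 38.6 to 232. The fitted change was large (log2 fold change 6.33, SE 0.27, adjusted p = 3.15e-29). Cyp26b1 (band 4q34), which oxidises RA to inactive products, was at 5.52, 1.88 and 0 CPM in T0, 2.39, 0 and 0 CPM in T7-RA and 187, 203 and 214 CPM in T7+RA. Its T0 and T7-RA cultures overlapped near 0 and its T7+RA cultures stood apart. For Cyp26b1 the log2 fold change was 6.04 (SE 0.32, adjusted p = 1.39e-24) against T0 and 7.56 (SE 0.36, adjusted p = 5.04e-27) against T7-RA. Neither gene passed the test in the week without RA, where the adjusted p was 0.273 for Dhrs3 and 0.305 for Cyp26b1.

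Of the 4 receptors measured, 1 passed the test. Rara, the alpha receptor, was lowered, from 77.3, 122 and 96.4 CPM in T0 to 62.7, 44.3 and 44.6 CPM in T7+RA (log2 fold change -0.94, SE 0.21, adjusted p = 2.82e-04), and stood at 53.7, 61.8 and 50.8 CPM in T7-RA. The call was lost for Rara without T0 2, T7+RA 2 or T7+RA 3 (adjusted p from 0.00365 to 0.00794). The T7+RA and T7-RA levels of Rara overlapped (adjusted p = 0.851 in the direct test). Rarg, Rxra and Rxrb had log2 fold changes of -0.30, -0.23 and 0.02 and none passed the test. Of 18 measured genes for retinoid receptors and metabolism, 2 were raised and 1 was lowered, with a median log2 fold change of -0.06. Rarb, Cyp26a1, Crabp1, Crabp2 and Stra6 were not analysed here.

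Among 23 measured genes that are known as RA targets in other cells, 6 rose and 3 fell over the week with RA (median log2 fold change 0.00). Over all genes, 5.27% were raised and 5.14% lowered. Tgm2, the tissue transglutaminase that crosslinks proteins, was at 2.76, 5.63 and 0 CPM in T0, 7.16, 4.03 and 14.5 CPM in T7-RA and 74.1, 73.8 and 34.3 CPM in T7+RA. The third T7+RA culture was lower than the other T7+RA cultures but still above all T0 and T7-RA cultures (log2 fold change 4.34, SE 0.47, adjusted p = 4.71e-11), and the ratio of summed counts was 21.7, with a 95% counting interval of 9.06 to 68.0. Bhlhe40, a transcriptional repressor, went from 84.1, 82.6 and 79.7 CPM to 179.6, 175 and 180.0 CPM (log2 fold change 1.11, SE 0.16, adjusted p = 1.25e-07), while T7-RA cultures lay below T0 at 71.6, 57.8 and 39.2 CPM. Ltbp3, which holds latent TGF-beta in the matrix, and Atraid also rose (1.07 and 1.33 on the log2 scale). Fst, the secreted activin binder follistatin, fell from 193, 135 and 208 CPM to 45.6, 53.7 and 49.7 CPM (log2 fold change -1.84, SE 0.18, adjusted p = 3.10e-13). T7-RA cultures kept Fst at 172, 151 and 186 CPM, inside the T0 range. In the direct test Ltbp3 was higher with RA (0.57), a call lost for Ltbp3 without T7+RA 1, T7+RA 2, T7-RA 2 or T7-RA 3 (adjusted p from 0.00146 to 0.00481).

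Promoters were read for the receptor's letters because RA receptors can bind them. Promoter sequences from RefSeq (GRCr8) matched 8063 of 11574 genes with a single listed start (69.7%), and the 250 bases before each start were searched on both strands. AGGTCA occurred in 9.75% of all these promoters, in 10.2% of promoters of genes higher in T7+RA than in T7-RA (16 of 157) and in 9.64% of promoters of genes raised against T0. The latter shares are near that of all promoters. Dhrs3 and Cyp26b1 did not hold the letters in this window, which says nothing about sites elsewhere. A pair of strongly raised genes that did hold them are printed with the match in capitals, read as TGACCT on the strand shown, 18 bases before the start in Itgax and 84 bases before it in Gadd45a.
Itgax promoter, chr1:192149949-192150048, + strand: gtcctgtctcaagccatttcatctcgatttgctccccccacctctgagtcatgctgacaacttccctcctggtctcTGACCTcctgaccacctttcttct
Gadd45a promoter, chr4:97486837-97486936, - strand: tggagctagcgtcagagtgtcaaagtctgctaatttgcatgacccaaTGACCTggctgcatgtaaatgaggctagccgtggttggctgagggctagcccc

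Itgax, the integrin alpha X chain, belonged to the genes that rose most. It was at 2.76, 3.75 and 4.19 CPM in T0, 4.77, 4.03 and 4.36 CPM in T7-RA and 85.5, 69.8 and 82.3 CPM in T7+RA. T7-RA lay within or next to the T0 range and every T7+RA culture was above 69 CPM (log2 fold change 4.44, SE 0.39, adjusted p = 5.84e-15), a ratio of 22.8, with a 95% counting interval of 10.2 to 63.0 from 6 counts in T0 and 160 in T7+RA. Cd14, the single leukocyte marker measured, was at 13.8, 22.5 and 10.5 CPM in T0 and 22.8, 25.5 and 27.4 CPM in T7+RA and did not pass the test (adjusted p = 0.162). Gadd45a, a stress and growth arrest gene, rose in steps, with 22.1, 33.8 and 18.9 CPM in T0, 83.5, 63.2 and 85.7 CPM in T7-RA and 204, 159.7 and 204 CPM in T7+RA. Its cultures did not overlap in any pair of these groups, and it passed the test against T0 (log2 fold change 2.92, SE 0.20, adjusted p = 5.48e-19) and against T7-RA (log2 fold change 1.28, SE 0.15, adjusted p = 9.67e-10).

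Other strongly raised genes were low at T0. Mamdc2, a protein with MAM domains, was at 0, 1.88 and 0 CPM in T0, 3.58, 1.34 and 7.26 CPM in T7-RA and 101, 72.5 and 70.3 CPM in T7+RA (log2 fold change 6.75, SE 0.52, adjusted p = 5.52e-17). Its 1 count in T0 and 166 in T7+RA give a ratio of 142, with a 95% counting interval of 25.1 to 5637. Mcpt1, a mast cell chymase, had 1 count in T0 and 113 in T7+RA, a ratio of 96.6, with a 95% counting interval of 17.0 to 3848, and T7+RA cultures held 59.9, 56.4 and 49.7 CPM. Tmem64, a transmembrane protein, went from 8.28, 5.63 and 4.19 CPM to 131, 119 and 127 CPM and was at 23.9, 18.8 and 17.4 CPM in T7-RA (log2 fold change 4.27, SE 0.28, adjusted p = 3.79e-20). The fitted fold changes of genes with so few T0 counts depend on the prior count of the fit. Each of these 3 genes was also higher in T7+RA than in T7-RA in the direct test, with log2 fold changes of 4.30 for Mamdc2, 5.71 for Mcpt1 and 2.62 for Tmem64.

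Abca1, which exports cholesterol from cells, rose with and without RA. Its levels were 6.90, 5.63 and 4.19 CPM in T0, 56.1, 44.3 and 68.3 CPM in T7-RA and 161, 175 and 185 CPM in T7+RA. The 3 groups did not overlap, T7-RA lying between T0 and T7+RA. For Abca1 the log2 fold change was 4.87 (SE 0.28, adjusted p = 7.56e-23) against T0 and 1.63 (SE 0.17, adjusted p = 5.44e-12) against T7-RA. Tceal7 rose in both weeks, at 6.90, 0 and 0 CPM in T0, 68.0, 47.0 and 84.2 CPM in T7-RA and 79.8, 56.4 and 80.6 CPM in T7+RA (log2 fold change 4.55, SE 0.42, adjusted p = 8.27e-14 against T0). The direct test gave an adjusted p of 0.856 for Tceal7, and its T7+RA and T7-RA cultures overlapped.

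**Figure D2:**
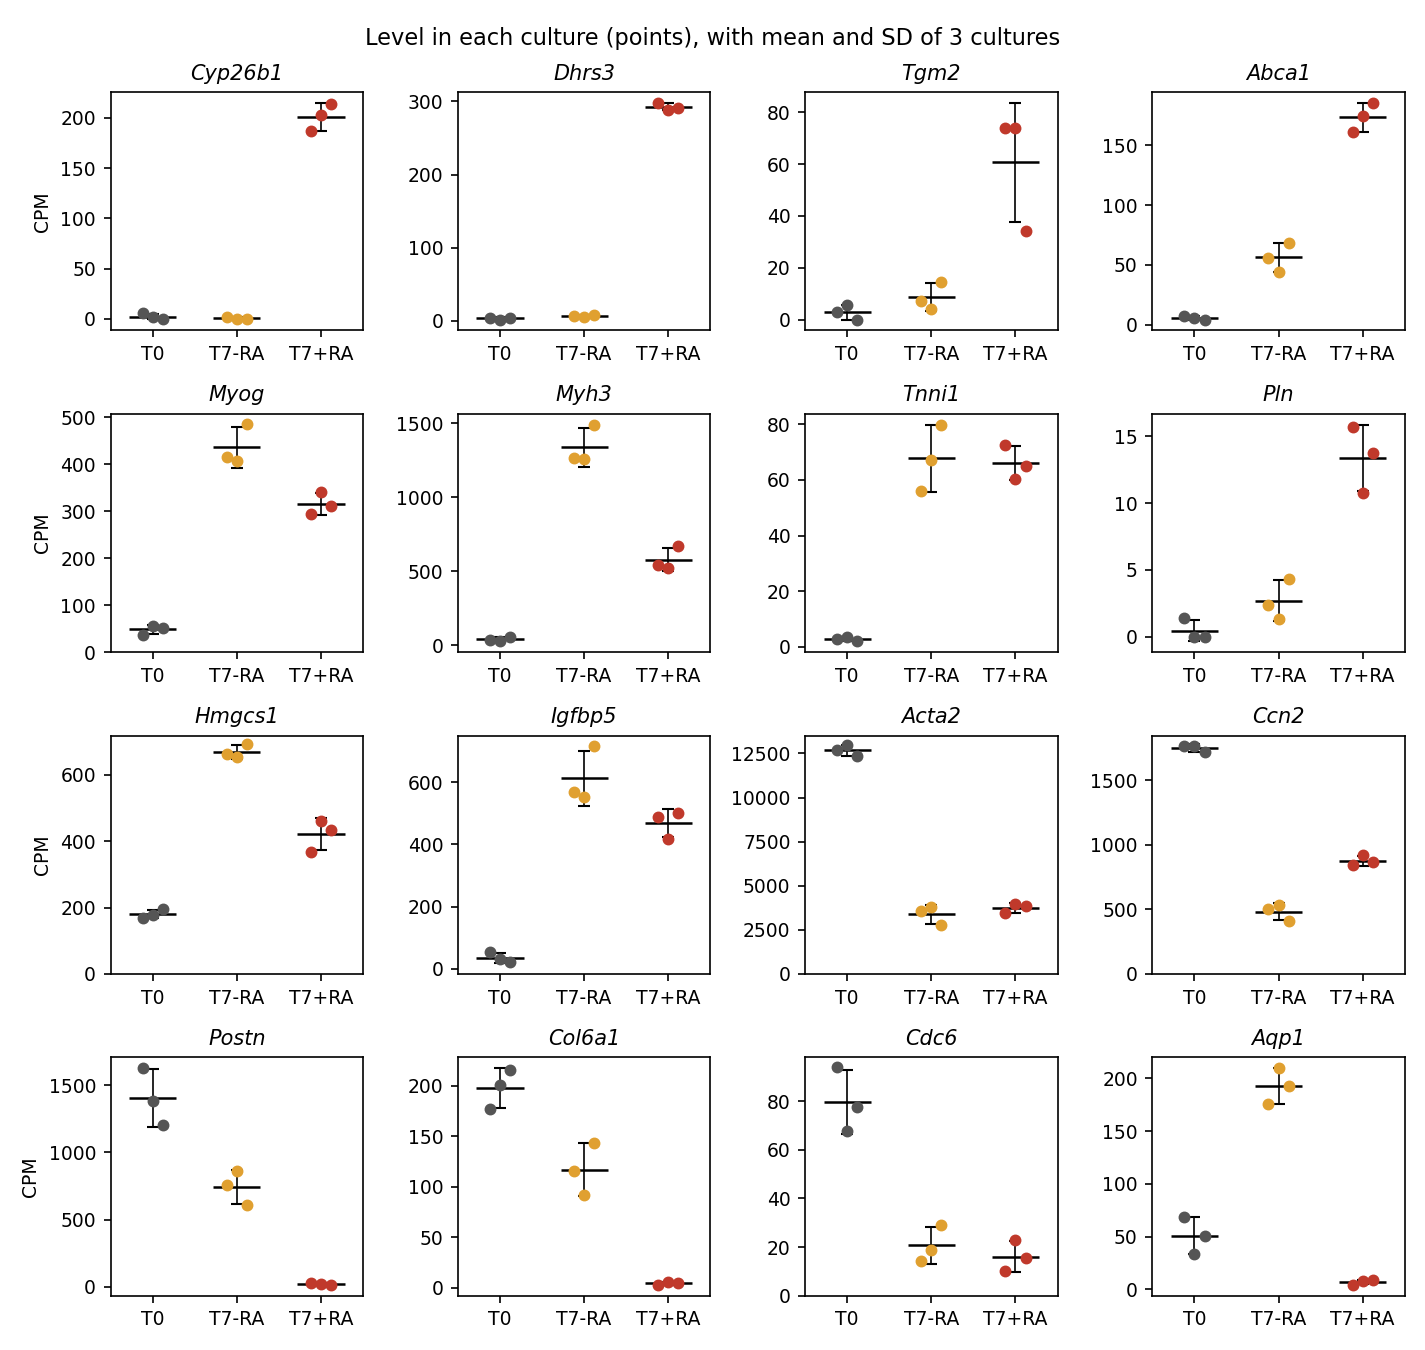
Level (CPM, linear y axis of its own in each panel) of 16 genes in the T0, T7-RA and T7+RA cultures, each point a culture, with the mean (line) and SD (bars) of 3 cultures. Cyp26b1, Dhrs3 and Tgm2 are high in T7+RA alone among the 3 groups, Myog, Myh3 and Hmgcs1 are highest in T7-RA, Acta2 and Ccn2 fall in both weeks, and Postn and Col6a1 are nearly lost in T7+RA.

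Many muscle genes were raised after the week with RA, and several were lower than after the week without it. Myogenin (Myog), the MyoD-family factor that starts terminal differentiation, was at 37.2, 56.3 and 52.4 CPM in T0, 415, 407 and 485 CPM in T7-RA and 295, 341 and 312 CPM in T7+RA. All day 7 cultures were above all T0 cultures, and T7+RA lay below T7-RA without overlap (log2 fold change 2.73, SE 0.16, adjusted p = 5.26e-23 against T0). The direct difference was -0.46 on the log2 scale and did not pass the test (adjusted p = 0.00227). Myod1, the determination factor, was at 124, 150.1 and 71.3 CPM in T0 and 135, 161 and 149 CPM in T7+RA, with overlap and an adjusted p of 0.133. Smyd1, a methyltransferase of muscle, was also raised, with a count ratio of 8.40, with a 95% counting interval of 3.64 to 23.8.

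Of the other regulators, Id3, which blocks MyoD proteins, fell from 265, 287 and 231 CPM to 89.8, 107 and 99.4 CPM (log2 fold change -1.40, SE 0.14, adjusted p = 3.62e-12). Snai1, a repressor of differentiation genes, fell to 12.8, 17.5 and 17.1 CPM from 64.8, 69.4 and 56.6 CPM (log2 fold change -2.01, SE 0.28, adjusted p = 4.47e-08). Myocd and Srf, which together drive smooth muscle and serum-response genes, fell as well (-1.69 and -0.93 on the log2 scale), with the call lost for Srf without T0 1 or T7+RA 3 (adjusted p from 0.00134 to 0.00160). Mymx, the small membrane protein needed for myoblast fusion, had no count in any T0 library and 12.8, 14.8 and 12 CPM in T7+RA, at least 2.47-fold higher when each T0 library is set to 3 counts. In all, 6 of 34 myogenic regulators and fusion genes were raised and 5 lowered (median log2 fold change 0.02). The lowered count was 3 without T0 1. In the direct test 4 of the 34 were higher and 0 lower with RA, beside 1.87% and 1.3% of all genes, with a median of -0.13.

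Sarcomere genes rose in part. Of 50 measured members, 16 were raised and 4 lowered, with a median log2 fold change of 1.00 beside 0.01 over all genes. The week without RA had 19 raised, 4 lowered and a median of 1.203. Set against T7-RA directly, 10 members were lower with RA and 3 were higher, beside backgrounds of 1.3% and 1.87%, and the median was -0.44. Where only genes with at least 10 counts in every library were tested, 7 members were raised against T0 and 4 were lower than in T7-RA.

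In the thick filament, embryonic myosin heavy chain (Myh3) was at 35.9, 30.0 and 56.6 CPM in T0, 1263, 1261 and 1492 CPM in T7-RA and 546, 521 and 670.2 CPM in T7+RA. No group overlapped another, and T7+RA held less than T7-RA in every culture. For Myh3 the log2 fold change was 3.85 (SE 0.16, adjusted p = 8.00e-30) against T0 and -1.21 (SE 0.10, adjusted p = 5.00e-15) against T7-RA. The light chain gene Mylpf followed the same order, at 33.1, 43.2 and 54.5 CPM in T0, 1022, 989 and 1126 CPM in T7-RA and 328, 305 and 444 CPM in T7+RA. For Mylpf the log2 fold change was 3.07 (SE 0.17, adjusted p = 9.77e-24) against T0 and -1.55 (SE 0.11, adjusted p = 4.26e-18) against T7-RA. Myl4, the atrial and embryonic light chain, and Myom2, an M-band protein, were raised against T0 (2.60 and 2.87 on the log2 scale) and lower than in T7-RA (-1.65 and -1.59). Mybph, a myosin binding protein, was at 8.28, 9.38 and 20.96 CPM in T0, 99.0, 87.4 and 106 CPM in T7-RA and 117, 109 and 166 CPM in T7+RA, and its T7+RA cultures were above its T7-RA cultures without passing the direct test (adjusted p = 0.117). Myom2 lost its call without several libraries, against T0 for Myom2 without T0 1, T0 2, T7+RA 1 or T7+RA 3 (adjusted p from 0.00123 to 0.00645), and in the direct test for Myom2 without T7+RA 2 or T7-RA 1 (adjusted p from 0.00176 to 0.00295). Myh4, the fast adult heavy chain, went down from 452, 396 and 457 CPM to 82.7, 133 and 130.3 CPM (log2 fold change -1.92, SE 0.15, adjusted p = 1.46e-15).

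Of 14 thin filament genes, 2 were higher and 4 lower with RA in the direct test. Skeletal alpha-actin (Acta1) was at 52.4, 41.3 and 31.4 CPM in T0, 693, 650.4 and 794 CPM in T7-RA and 352, 458 and 490.2 CPM in T7+RA, again highest without RA and without overlap. For Acta1 the log2 fold change was 3.32 (SE 0.16, adjusted p = 3.54e-26) against T0 and -0.72 (SE 0.11, adjusted p = 5.84e-07) against T7-RA. Tnnt3 and Tnni2, the fast skeletal troponins T and I, were raised against T0 (3.15 and 2.93) and lower than in T7-RA (-1.29 and -1.46). Tnni1, the slow troponin I, was at 2.76, 3.75 and 2.10 CPM in T0, 56.1, 67.2 and 79.9 CPM in T7-RA and 72.7, 60.4 and 65.1 CPM in T7+RA. Its day 7 groups overlapped each other and neither overlapped T0 (log2 fold change 4.43, SE 0.38, adjusted p = 3.07e-15), with a count ratio of 22.9, with a 95% counting interval of 9.58 to 71.7. Tnnc1, the troponin C of slow and heart muscle, was higher with RA, at 475, 735 and 440.2 CPM in T0, 657, 609 and 517 CPM in T7-RA and 1222, 1112 and 1215 CPM in T7+RA. T0 and T7-RA overlapped and T7+RA did not overlap them. For Tnnc1 the log2 fold change was 1.11 (SE 0.14, adjusted p = 8.45e-07) against T0 and 0.99 (SE 0.13, adjusted p = 7.62e-06) against T7-RA. Heart troponin T (Tnnt2) rose from 63.5, 54.4 and 60.8 CPM to 312, 306 and 283 CPM and was at 369, 409 and 360.2 CPM in T7-RA (log2 fold change 2.33, SE 0.15, adjusted p = 9.35e-21). Heart alpha-actin (Actc1) had 8.55, 12.1 and 8.57 CPM in T7+RA and 28.6, 43.0 and 30.5 CPM in T7-RA, and was lower with RA (log2 fold change -1.77, SE 0.35, adjusted p = 1.32e-04). Calls that 1 library decided were those of Tnni2 without T0 1 (adjusted p = 0.00108) against T0 and of Actc1 without T7+RA 1, T7+RA 3 or T7-RA 2 (adjusted p from 0.00189 to 0.00447) in the direct test. Reads from near-identical actin and myosin genes could be shared between them, and how such reads were counted was not given in the sources used here.

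Of 24 Z-disc and scaffold genes of the sarcomere list, 4 were raised and 3 lowered. The myosin chaperone Unc45b rose by a count ratio of 13.5, with a 95% counting interval of 5.99 to 37.8. Trim63, a ubiquitin ligase of the sarcomere also called MuRF1, was at 8.28, 1.88 and 8.38 CPM in T0 and 27.1, 21.5 and 24.0 CPM in T7+RA (log2 fold change 1.90, SE 0.43, adjusted p = 4.28e-04), and the call was lost for Trim63 without T0 1, T0 2, T7+RA 1 or T7+RA 3 (adjusted p from 0.00144 to 0.00667).

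Promoters of sarcomere genes are shown because many held CAGCTG, a form of the E-box that MyoD-family factors read. These letters occurred in 33.3% of sarcomere promoters (12 of 36) and in 11.9% of all promoters. They were in 3 of the 8 promoters read for raised members, printed with the match in capitals. It lies 231 bases before the start in Acta1, 113 in Myl4 and 77 in Trim63. The motif was picked after the expression values were seen, and the match is a description of the letters only.
Acta1 promoter, chr19:68784345-68784444, - strand: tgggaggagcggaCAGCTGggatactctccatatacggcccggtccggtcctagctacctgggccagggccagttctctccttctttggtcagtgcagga
Myl4 promoter, chr10:89975984-89976083, + strand: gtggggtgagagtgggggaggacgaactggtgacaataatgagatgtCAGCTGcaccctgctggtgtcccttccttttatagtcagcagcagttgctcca
Trim63 promoter, chr5:151817106-151817205, + strand: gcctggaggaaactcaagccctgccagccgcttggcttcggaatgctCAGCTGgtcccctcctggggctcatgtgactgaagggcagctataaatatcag

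**Figure D3:**
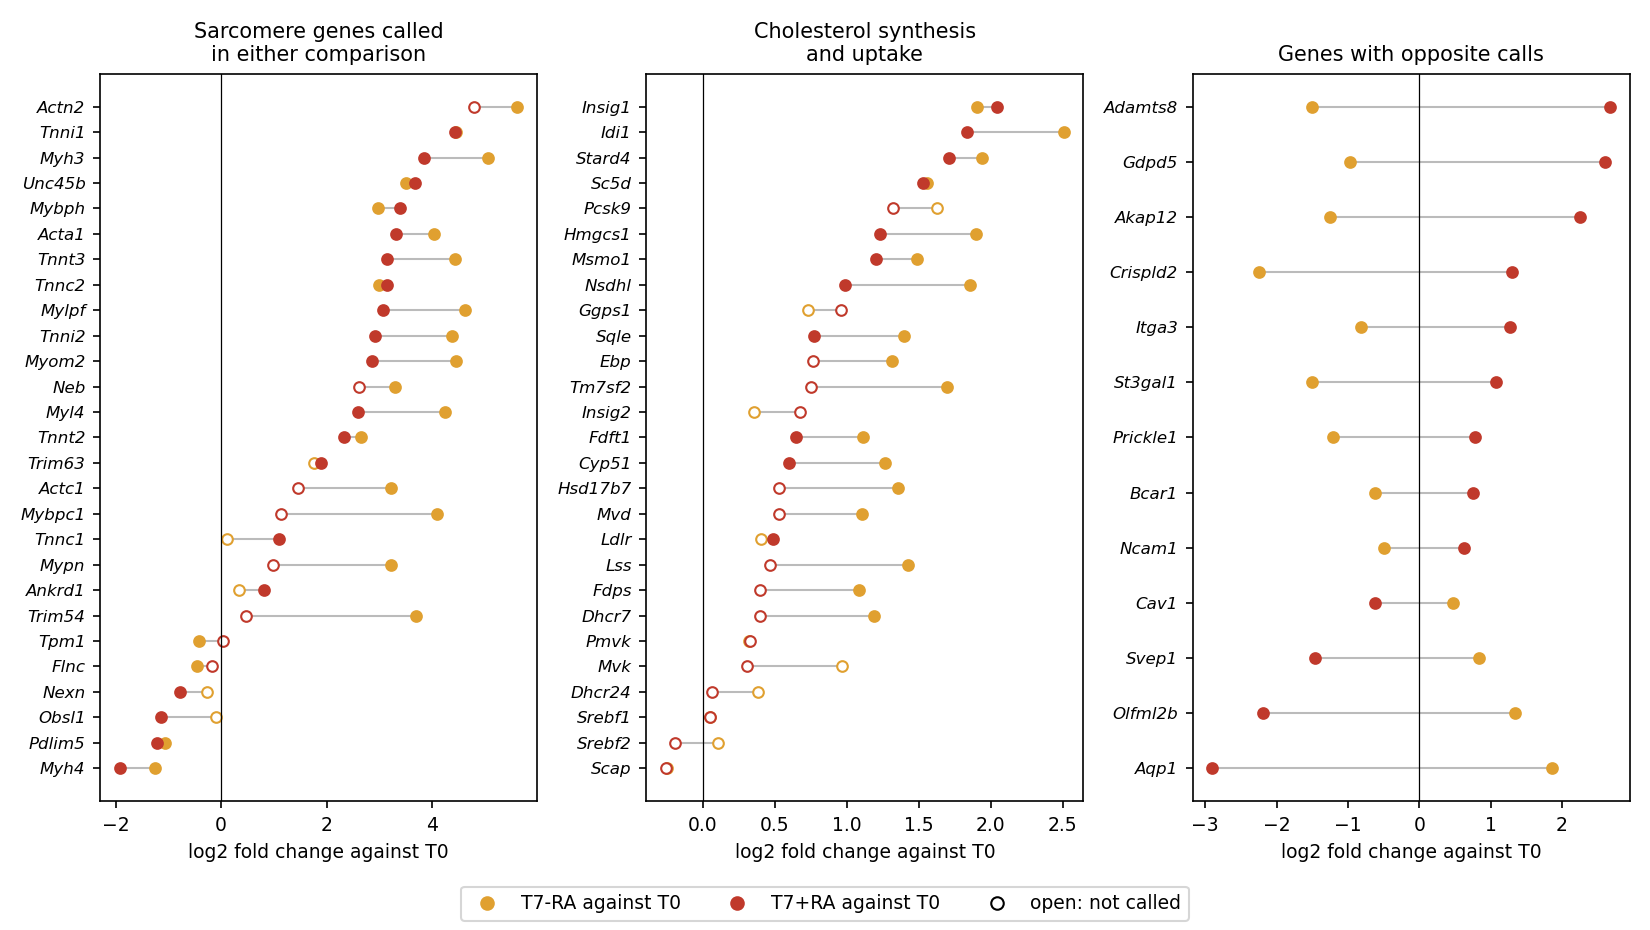
Fitted log2 fold change against the same T0 cultures (x axis) after the week with RA (red) and without RA (orange) for sarcomere genes called in either comparison, cholesterol genes and the 13 genes with opposite calls, where open circles are genes that did not pass the test. Red points lie left of orange points for Myh3, Mylpf and Myl4 and for most cholesterol genes, and Tnnc1 is an exception to this among the sarcomere genes.

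Some genes of calcium handling and of the contact with nerves were raised. Of 36 measured, 9 were raised and 0 lowered (median log2 fold change 0.80), beside 5.27% and 5.14% of all genes. With only genes of at least 10 counts in every library, 5 were raised and the median was -0.09. Pln, phospholamban, which brakes the calcium pump of heart and slow muscle, was at 1.38, 0 and 0 CPM in T0, 2.39, 1.34 and 4.36 CPM in T7-RA and 15.7, 10.7 and 13.7 CPM in T7+RA. T7+RA cultures did not overlap the others, but they rest on 1 count in T0 and 27 in T7+RA, a ratio of 23.1, with a 95% counting interval of 3.80 to 945. The pump Atp2a2 was at 881, 759.8 and 876 CPM in T0 and 974, 950.4 and 920.4 CPM in T7+RA and did not pass the test (adjusted p = 0.168). The store protein Casq2, calsequestrin, rose from 411, 441 and 323 CPM to 563, 557 and 651 CPM (log2 fold change 0.58, SE 0.11, adjusted p = 2.10e-05). Ryr1, the skeletal release channel, was raised as well (log2 fold change 2.61, SE 0.58, adjusted p = 7.26e-04). Calls lost with 1 library left out were those of Pln without T0 2, T0 3 or T7+RA 1 (adjusted p from 0.00111 to 0.00140), Casq2 without T7+RA 3 (adjusted p = 0.00115) and Ryr1 without any 1 library (adjusted p from 0.00270 to 0.00601). Cacng1, a calcium channel subunit of skeletal muscle, was at 17.9, 10.8 and 21.8 CPM in T7-RA but 2.85, 1.34 and 0 CPM in T7+RA, and was lower with RA (log2 fold change -3.35, SE 0.62, adjusted p = 5.24e-05), a call lost for Cacng1 without T7+RA 2, T7+RA 3 or T7-RA 3 (adjusted p from 0.00105 to 0.00142).

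At the neuromuscular junction, the acetylcholine receptor subunits were raised in part. The delta subunit gene Chrnd was at 4.14, 0 and 2.10 CPM in T0, 79.9, 51.1 and 81.3 CPM in T7-RA and 49.9, 51.0 and 44.6 CPM in T7+RA. T7+RA cultures were above T0 and below T7-RA (log2 fold change 4.30, SE 0.46, adjusted p = 1.10e-11 against T0), the count ratio to T0 was 21.2, with a 95% counting interval of 8.01 to 79.2, and the direct test gave an adjusted p of 0.107. Chrnb1, the beta subunit, was at 59.3, 52.5 and 77.6 CPM in T0, 69.2, 69.9 and 61.0 CPM in T7-RA and 128, 125 and 139 CPM in T7+RA, and only its T7+RA cultures stood above T0. For Chrnb1 the log2 fold change was 1.06 (SE 0.19, adjusted p = 7.78e-06) against T0 and 0.96 (SE 0.17, adjusted p = 3.41e-05) against T7-RA. Musk and Lrp4, which form the receptor for the nerve signal agrin, rose too (0.80 and 1.14 on the log2 scale), with the call lost for Musk without T7+RA 1 or T7+RA 3 (adjusted p from 0.00158 to 0.00164).

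Many genes for DNA replication fell. None of 49 measured members was raised and 27 were lowered, with a median log2 fold change of -1.11. The week without RA had 20 lowered and a median of -0.82, and no member passed the direct test between T7+RA and T7-RA in either direction at the same threshold. Cdc6, which loads the helicase at origins, was at 93.8, 67.5 and 77.6 CPM in T0, 14.31, 18.8 and 29.0 CPM in T7-RA and 9.98, 22.8 and 15.4 CPM in T7+RA. Both day 7 groups lay below T0 and overlapped each other (log2 fold change -2.30, SE 0.29, adjusted p = 2.05e-09). Its partner Cdt1 went from 93.8, 75.0 and 103 CPM to 15.7, 21.5 and 20.6 CPM, below the 40.6, 40.3 and 32.0 CPM of T7-RA (log2 fold change -2.22, SE 0.26, adjusted p = 2.00e-10 against T0, adjusted p = 0.0225 in the direct test). The helicase subunits Mcm5 and Mcm6 fell by 1.74 and 1.57 on the log2 scale, and Gins1, which activates the helicase, was at 17.9, 30.0 and 23.1 CPM in T0 and 7.13, 6.71 and 3.43 CPM in T7+RA (log2 fold change -1.95, SE 0.46, adjusted p = 8.58e-04). The call was lost for Gins1 without T0 2, T0 3, T7+RA 1, T7+RA 2 or T7+RA 3 (adjusted p from 0.00205 to 0.00854). Pcna, the sliding clamp, was at 152, 156 and 111 CPM in T0 and 96.9, 98.0 and 113 CPM in T7+RA, with an adjusted p of 0.0253 that missed the threshold.

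The letters that E2F factors read at replication genes (TTTGGCGC, TTTCGCGC or TTTCCCGC) were in 20.5% of replication promoters (8 of 39), in 3.09% of all promoters and in 2.27% of mitosis promoters. They occurred in 5 of the 20 promoters read for lowered members. A group of 3 is printed, with every match on either strand in capitals, to show the sites 13 bases before the start in Gins1, next to it in Mcm5 and 127 bases before it in Mcm6. In Gins1 and Mcm6 a match on each strand overlaps the other, so the capitals run longer than a single motif. This motif was also picked after the values were seen.
Gins1 promoter, chr3:160184820-160184919, + strand: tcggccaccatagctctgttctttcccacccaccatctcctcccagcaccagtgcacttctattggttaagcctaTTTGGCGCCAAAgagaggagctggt
Mcm5 promoter, chr19:13488713-13488812, + strand: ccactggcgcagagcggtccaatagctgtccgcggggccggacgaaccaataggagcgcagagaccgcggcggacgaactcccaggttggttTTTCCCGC
Mcm6 promoter, chr13:42404434-42404533, - strand: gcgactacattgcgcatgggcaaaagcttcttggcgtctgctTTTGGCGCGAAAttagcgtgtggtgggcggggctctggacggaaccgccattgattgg

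Mitosis genes fell in part. Of 52 members, 12 were lowered and none raised (median log2 fold change -0.48). The lowered count was 7 without T7+RA 1. Mki67, the proliferation marker Ki-67, went from 746, 537 and 869.9 CPM to 373, 409 and 394 CPM (log2 fold change -0.87, SE 0.15, adjusted p = 1.39e-04). Plk1, a mitotic kinase, and Foxm1, a factor that turns on mitotic genes, fell by 0.94 and 1.07 on the log2 scale. Calls lost with 1 library left out were those of Mki67 without T0 1, T7+RA 1 or T7+RA 3 (adjusted p from 0.00120 to 0.00154) and Foxm1 without T7+RA 1 (adjusted p = 0.00192). Cdk1 was at 135, 150.1 and 136 CPM in T0 and 109.8, 113 and 109.7 CPM in T7+RA and Top2a at 310.4, 272 and 342 CPM in T0 and 255, 244 and 229.7 CPM in T7+RA. Neither passed the test (adjusted p = 0.108 for Cdk1 and 0.0263 for Top2a), although no T7+RA culture reached its lowest T0 culture.

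Of 15 cell cycle inhibitors, 5 were raised and 2 lowered (median log2 fold change 0.59), and of 9 G1 cyclins and kinases 3 were raised and 0 lowered (median 0.00). The kinase inhibitor p21 (Cdkn1a) rose from 179, 137 and 172 CPM to 294, 283 and 321 CPM (log2 fold change 0.87, SE 0.13, adjusted p = 1.65e-07), and T7-RA cultures held 336, 299.7 and 285 CPM, overlapping T7+RA. Cdkn2b, the inhibitor p15, was at 27.6, 30.0 and 18.9 CPM in T0, 63.2, 61.8 and 49.4 CPM in T7-RA and 119.7, 134 and 137 CPM in T7+RA. It rose in both weeks and was highest with RA, without overlap. For Cdkn2b the log2 fold change was 2.32 (SE 0.22, adjusted p = 9.75e-14) against T0 and 1.15 (SE 0.17, adjusted p = 5.88e-07) against T7-RA. Cyclin D1 (Ccnd1), which pushes cells through G1, was higher in T7+RA as well, at 957, 931 and 1038 CPM in T0, 878, 793 and 871 CPM in T7-RA and 1502, 1513 and 1453 CPM in T7+RA. For Ccnd1 the log2 fold change was 0.61 (SE 0.09, adjusted p = 2.32e-07) against T0 and 0.81 (SE 0.09, adjusted p = 1.44e-10) against T7-RA. Ccng1, a target of p53, rose by 1.69 and Ccnd2 by 1.08 on the log2 scale, and Rbl1, the retinoblastoma relative p107, fell by 1.57, a call lost for Rbl1 without T0 1, T7+RA 1, T7+RA 2 or T7+RA 3 (adjusted p from 0.00101 to 0.00240). The lowered count of both sets together was 1 without T0 1, T7+RA 1, T7+RA 2 or T7+RA 3.

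Most smooth muscle and serum-response genes fell. Of 31 measured, 22 were lowered and 1 was raised (median log2 fold change -0.96). The week without RA had 22 lowered and none raised, with a median of -1.03. Smooth muscle alpha-actin (Acta2), the most abundant of them, was at 12716, 12990.5 and 12347 CPM in T0, 3579, 3807 and 2749 CPM in T7-RA and 3427, 3966 and 3824 CPM in T7+RA. The day 7 groups overlapped each other far below T0 (log2 fold change -1.76, SE 0.09, adjusted p = 1.70e-25). The matrix glycoprotein Thbs1, thrombospondin, fell further with RA, at 8477, 7330.1 and 9173 CPM in T0, 3168, 3198 and 2825 CPM in T7-RA and 1919, 2262 and 2070.5 CPM in T7+RA. For Thbs1 the log2 fold change was -1.998 (SE 0.09, adjusted p = 1.43e-27) against T0 and -0.56 (SE 0.09, adjusted p = 3.01e-06) against T7-RA. Tagln, Cnn1 and Actg2, which bind or form actin filaments of smooth muscle, fell by 1.23, 1.90 and 2.14 on the log2 scale.

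A few members of that group differed with RA. Ccn1 and Ccn2, secreted proteins that YAP and serum induce, fell less with RA. Ccn2 was at 1764, 1764 and 1715 CPM in T0, 501, 532 and 407 CPM in T7-RA and 844, 917 and 866 CPM in T7+RA, and the 3 groups did not overlap. For Ccn2 the log2 fold change was -0.997 (SE 0.09, adjusted p = 1.37e-13) against T0 and 0.86 (SE 0.10, adjusted p = 2.22e-10) against T7-RA. Ccn1 was higher than in T7-RA by 0.61 on the log2 scale, a call lost for Ccn1 without T7+RA 1, T7+RA 3 or T7-RA 3 (adjusted p from 0.00111 to 0.0120). Mylk, the kinase that starts smooth muscle contraction, was the raised member, from 95.2, 58.2 and 119 CPM and 87.1, 95.4 and 90.05 CPM without RA to 218, 200.02 and 209 CPM with it (log2 fold change 1.21, SE 0.16, adjusted p = 9.20e-09 against T0).

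Matrix genes changed in both directions. Of 72 measured, 12 were raised and 18 lowered (median log2 fold change -0.20), beside 5.27% and 5.14% of all genes. In the direct test 16 were higher and 14 lower with RA, beside 1.87% and 1.3% of all genes. Periostin (Postn), a matricellular protein of fibroblasts and wound repair, was at 1629, 1385 and 1201 CPM in T0, 757, 864 and 611 CPM in T7-RA and 25.7, 17.5 and 13.7 CPM in T7+RA. All T7+RA cultures were below 26 CPM, and T7-RA lay between. For Postn the log2 fold change was -6.19 (SE 0.20, adjusted p = 2.91e-23) against T0 and -5.27 (SE 0.21, adjusted p = 2.69e-20) against T7-RA. Col6a1 and Col6a2 encode the chains alpha 1 and alpha 2 of collagen VI and lie on the same band (20p12). Col6a1 was at 177, 201 and 216 CPM in T0, 116, 91.4 and 144 CPM in T7-RA and 2.85, 5.37 and 5.14 CPM in T7+RA (log2 fold change -5.41, SE 0.28, adjusted p = 5.88e-25). Col6a2 was at 156, 178 and 191 CPM in T0, 124, 132 and 126 CPM in T7-RA and 28.5, 22.8 and 5.14 CPM in T7+RA (log2 fold change -3.13, SE 0.23, adjusted p = 1.02e-17). Both were lower than in every T7-RA culture, by -4.66 and -2.69 on the log2 scale.

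Among the other lowered matrix genes, elastin (Eln) went from 3511, 3234 and 3970.2 CPM to 821, 863 and 795 CPM (log2 fold change -2.11, SE 0.10, adjusted p = 5.84e-27) and to 1047, 961 and 890.3 CPM without RA. Fibronectin (Fn1) fell by 0.64 and biglycan (Bgn) by 0.78 on the log2 scale. Col1a1, the most abundant gene of every T0 and T7+RA library, was at 28105, 24296 and 37279 CPM in T0 and 22420.5, 25536 and 22703 CPM in T7+RA, and its groups overlapped (adjusted p = 0.0401). Fmod, fibromodulin, was at 11.04, 1.88 and 29.3 CPM in T0, 143, 149 and 206 CPM in T7-RA and 17.1, 21.5 and 22.3 CPM in T7+RA. It did not pass against T0 (adjusted p = 0.325) but was lower with RA than without (log2 fold change -3.02, SE 0.24, adjusted p = 5.40e-14).

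Raised matrix genes included Col11a1, a chain of collagen XI, at 128, 93.8 and 128 CPM in T0, 137, 167 and 148 CPM in T7-RA and 701, 707 and 719.9 CPM in T7+RA. T7-RA lay slightly above T0 and T7+RA far above both. For Col11a1 the log2 fold change was 2.60 (SE 0.13, adjusted p = 2.90e-25) against T0 and 2.24 (SE 0.12, adjusted p = 1.82e-23) against T7-RA. Loxl2, which crosslinks collagen, was at 209.7, 238 and 258 CPM in T0, 180.1, 171 and 221 CPM in T7-RA and 637, 758 and 715 CPM in T7+RA, with T0 and T7-RA overlapping and T7+RA above both. For Loxl2 the log2 fold change was 1.59 (SE 0.12, adjusted p = 1.02e-17) against T0 and 1.89 (SE 0.12, adjusted p = 5.86e-21) against T7-RA. Dcn, decorin, had no count at T0 and 4.28, 12.1 and 10.3 CPM in T7+RA, at least 1.66-fold higher over a floor of 3 counts per library, and its call depended on single libraries as given with the fibroblast markers. Adamts14 and Adamts8, secreted metalloproteinases, rose as well, and of 32 genes for metalloproteinases and their inhibitors 3 were raised and 7 lowered (median log2 fold change 0.04). The raised count was 5 without T0 2.

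Integrins are the receptors that hold cells to the matrix. Of 22 measured, 8 were higher and 0 lower in the direct test, beside 1.87% and 1.3% of all genes. Against T0, 4 were raised and 2 lowered, beside 5.27% and 5.14% of all genes. Itga7, the laminin receptor chain of muscle, was at 315, 278 and 306 CPM in T0, 439, 414 and 444 CPM in T7-RA and 1722, 1721 and 1679.7 CPM in T7+RA. The 3 groups did not overlap. For Itga7 the log2 fold change was 2.51 (SE 0.10, adjusted p = 4.46e-31) against T0 and 1.98 (SE 0.09, adjusted p = 3.19e-27) against T7-RA. Itga5, the fibronectin receptor chain, fell against T0 (-0.50 on the log2 scale) but less than without RA, at 542, 578 and 599.5 CPM in T0, 289.9, 253 and 239.6 CPM in T7-RA and 399, 395 and 419.9 CPM in T7+RA (log2 fold change 0.63, SE 0.11, adjusted p = 1.43e-05 in the direct test). Its call against T0 was lost for Itga5 without T0 3, T7+RA 1 or T7+RA 2 (adjusted p from 0.00101 to 0.00190), and the count of lowered integrins was 1 without T0 1, T0 3, T7+RA 1 or T7+RA 2. The common beta chain Itgb1 was at 2782, 2482 and 2522 CPM in T0, 1888, 1970.1 and 1877 CPM in T7-RA and 3083, 2863 and 2837 CPM in T7+RA, lowest without RA (log2 fold change 0.62, SE 0.08, adjusted p = 4.88e-08 in the direct test).

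**Figure D4:**
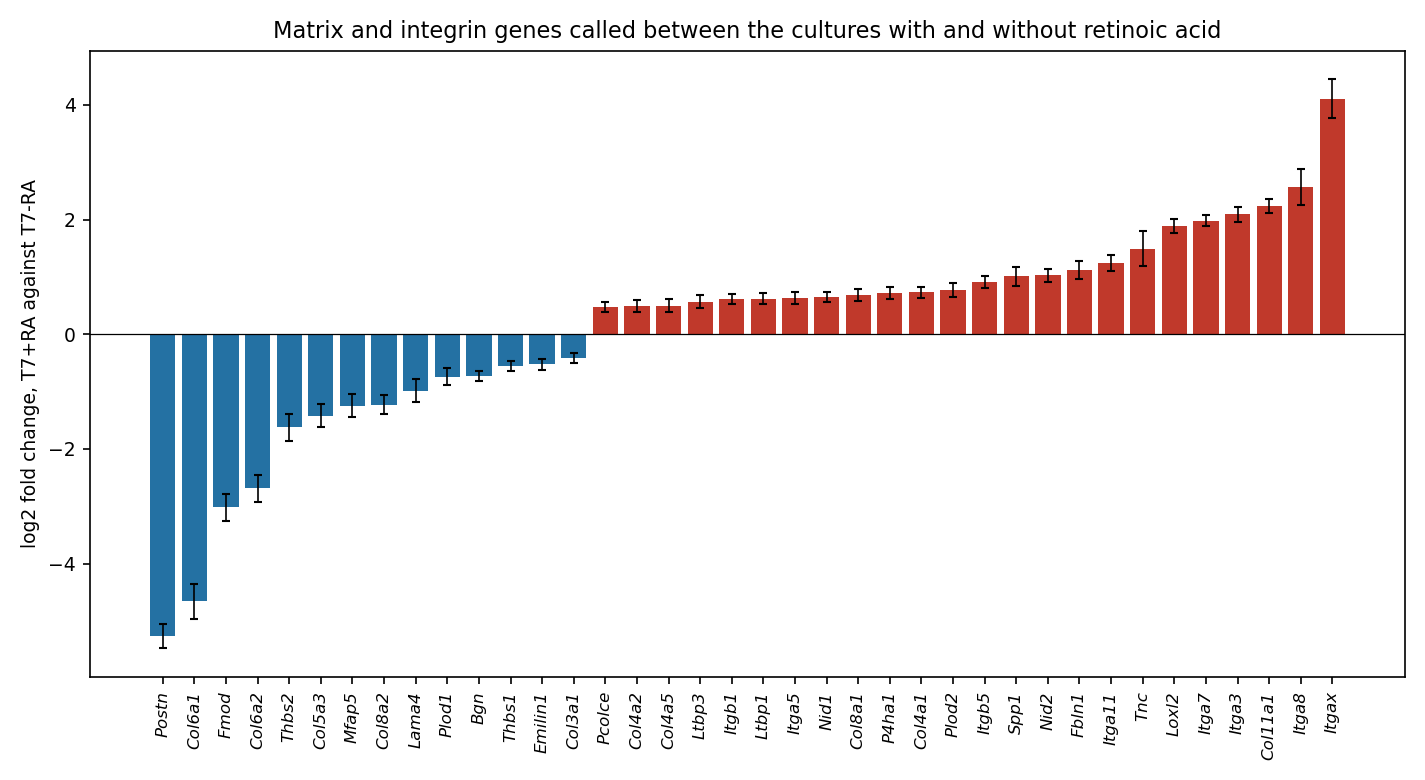
Fitted log2 fold change between T7+RA and T7-RA (y axis, bars from 0, error bars SE) of the matrix and integrin genes that passed the direct test, lower with RA in blue and higher in red. Postn at -5.27 and Col6a1 at -4.66 are the lowest bars and Itgax at 4.11 the highest.

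Several other genes were strongly lowered. Ccn5, a CCN family protein without the C-terminal domain, was at 211, 257 and 216 CPM in T0, 198, 204 and 179 CPM in T7-RA and 17.1, 9.397 and 10.3 CPM in T7+RA. T7-RA lay just below T0 and T7+RA far below both. For Ccn5 the log2 fold change was -4.19 (SE 0.23, adjusted p = 7.38e-24) against T0 and -3.96 (SE 0.23, adjusted p = 3.07e-22) against T7-RA. Fgfr2, a receptor for fibroblast growth factors, was at 129.7, 114 and 94.3 CPM in T0, 31.0, 20.2 and 21.8 CPM in T7-RA and 11.4, 5.37 and 15.4 CPM in T7+RA (log2 fold change -3.44, SE 0.30, adjusted p = 4.10e-15). Its T7+RA cultures were below T7-RA without overlap, and Fgfr2 did not pass the direct test (adjusted p = 0.0273).

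Smoc1, a matrix-associated calcium-binding protein, and the protease inhibitor Serpine2 had log2 fold changes of -3.06 and -3.01, and their T7+RA and T7-RA cultures overlapped. Chst3 and Ust, which add sulfate to glycosaminoglycans, had log2 fold changes of -3.15 and -2.91. Ca9, a carbonic anhydrase that low oxygen induces, was at 101, 128 and 130.0 CPM in T0, 44.1, 53.8 and 39.2 CPM in T7-RA and 12.8, 20.1 and 15.4 CPM in T7+RA, with no overlap among the groups. For Ca9 the log2 fold change was -2.85 (SE 0.25, adjusted p = 1.82e-14) against T0 and -1.48 (SE 0.29, adjusted p = 1.18e-04) against T7-RA. Chst3 was likewise lower with RA than without (direct log2 fold change -1.76). These direct calls were lost for Ca9 without T7+RA 1, T7+RA 3 or T7-RA 2 (adjusted p from 0.00137 to 0.00422) and Chst3 without T7+RA 1 (adjusted p = 0.00161).

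Lipid synthesis genes rose in part, and some cholesterol genes were lower with RA than without. Of 28 genes for cholesterol synthesis and uptake, 11 were raised and 0 lowered (median log2 fold change 0.63), beside 17 raised and a median of 1.23 in the week without RA. The direct test found 7 members lower with RA and 0 higher (background 1.3% and 1.87%, median -0.39). Hmgcs1, the enzyme that makes HMG-CoA, was at 169.7, 176 and 195 CPM in T0, 663, 653 and 693 CPM in T7-RA and 368, 462 and 435 CPM in T7+RA. The groups did not overlap and T7+RA lay between. For Hmgcs1 the log2 fold change was 1.23 (SE 0.12, adjusted p = 3.13e-13) against T0 and -0.67 (SE 0.10, adjusted p = 6.94e-07) against T7-RA. Sqle, squalene epoxidase, had the same order, at 222, 203 and 166 CPM in T0, 555, 499 and 520.0 CPM in T7-RA and 355, 315 and 349.7 CPM in T7+RA (log2 fold change -0.63, SE 0.11, adjusted p = 8.16e-06 in the direct test). Insig1, the sterol-regulated brake on this pathway, was an exception, at 67.6, 60.0 and 69.2 CPM in T0, 261, 215 and 261 CPM in T7-RA and 291, 273 and 247 CPM in T7+RA, with overlap between the day 7 groups (log2 fold change 2.04, SE 0.15, adjusted p = 5.11e-18 against T0).

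In fatty acid synthesis, 7 of 16 genes were raised and none lowered (median log2 fold change 0.63), and none passed the direct test in either direction. The desaturase Scd2, which puts a double bond into fatty acids, was at 705, 717 and 612 CPM in T0, 4014, 3870.3 and 4118 CPM in T7-RA and 4288, 4355 and 4256 CPM in T7+RA (log2 fold change 2.66, SE 0.09, adjusted p = 1.79e-34). T7+RA was slightly above T7-RA in each culture, without passing the direct test (adjusted p = 0.592). Its relative Scd rose from 52.4, 71.3 and 48.2 CPM to 378, 387 and 394 CPM (log2 fold change 2.75, SE 0.15, adjusted p = 8.86e-24), and the adjacent genes Scd and Scd2 are close copies whose shared reads could be split. Fasn, the fatty acid synthase, was at 555, 501 and 629 CPM in T0 and 473, 559.8 and 519 CPM in T7+RA, with overlap (adjusted p = 0.464).

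Lysosomal genes were raised in 18 of 40 cases and lowered in 0, with a median log2 fold change of 0.57. The week without RA had 15 raised and a median of 0.49. Ctsd, cathepsin D, was at 893, 904 and 757 CPM in T0, 1904, 1953 and 1741 CPM in T7-RA and 1836, 1686 and 1798 CPM in T7+RA, and the day 7 groups overlapped (log2 fold change 1.06, SE 0.09, adjusted p = 3.56e-15). Lamp2, a membrane protein of lysosomes, went from 179, 129 and 195 CPM to 430.5, 420.2 and 408 CPM (log2 fold change 1.32, SE 0.13, adjusted p = 1.74e-13). Lipa, which frees cholesterol and fatty acids from lysosomal esters, was at 200.02, 144 and 143 CPM in T0, 180.1, 155 and 225 CPM in T7-RA and 398, 373 and 446 CPM in T7+RA, with T0 and T7-RA overlapping below T7+RA. For Lipa the log2 fold change was 1.29 (SE 0.13, adjusted p = 1.69e-12) against T0 and 1.12 (SE 0.12, adjusted p = 6.95e-11) against T7-RA.

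Of 58 genes for muscle energy use, 10 were raised and 0 lowered (median log2 fold change 0.45), beside 5.27% and 5.14% of all genes. Ldhb, the lactate dehydrogenase chain of heart and oxidative tissue, was at 141, 201 and 157 CPM in T0, 179, 194 and 157 CPM in T7-RA and 525, 541 and 550.2 CPM in T7+RA. T0 and T7-RA overlapped and T7+RA stood apart. For Ldhb the log2 fold change was 1.71 (SE 0.12, adjusted p = 1.42e-18) against T0 and 1.61 (SE 0.12, adjusted p = 4.46e-18) against T7-RA. Sord, sorbitol dehydrogenase, was at 159, 128 and 105 CPM in T0, 187, 188 and 198 CPM in T7-RA and 418, 368 and 423 CPM in T7+RA and also passed both tests. For Sord the log2 fold change was 1.60 (SE 0.13, adjusted p = 5.72e-16) against T0 and 1.08 (SE 0.12, adjusted p = 9.09e-11) against T7-RA. Hk2, the hexokinase of muscle, and Hadhb, a subunit of the enzyme complex for long-chain fatty acid oxidation, rose by 1.33 and 1.29 on the log2 scale.

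Respiratory chain genes were raised about as often as all genes. Of 77 measured, 4 were raised and none lowered, beside 5.27% raised and 5.14% lowered over all genes. Their median log2 fold change was 0.29, and their summed level was 6746 to 9191 CPM in T0 and 8959 to 9189 CPM in T7+RA. The raised count was 1 without T0 1 or T7+RA 1 and 2 without T7+RA 2 and 9 without T0 2. Cytosolic ribosomal protein genes had 3 of 78 raised and none lowered (median 0.14), with a sum of 18799 to 30149.8 CPM in T0 and 24103 to 25233 CPM in T7+RA. The raised ribosomal count was 1 without T0 1, T0 3, T7+RA 1 or T7+RA 3 and 13 without T0 2. Most genes of both lists are short, and in the split by size described for the T0 libraries the median log2 fold change was 0.06 in the set with the smallest sizes, against -0.04 in the set with the largest. The part of the T0 size spread in these lists was not tested. Cox6a2, the heart and muscle form of a cytochrome oxidase subunit, was at 0, 0 and 6.29 CPM in T0 and 15.7, 20.1 and 32.6 CPM in T7+RA, a count ratio of 12.8, with a 95% counting interval of 4.12 to 64.5, and its call was lost for Cox6a2 without T0 1 (adjusted p = 0.00198).

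Among 71 measured genes of growth factor signalling, 8 were raised and 15 lowered (median log2 fold change -0.08). Of the ligands, Igf2, insulin-like growth factor 2, was at 731, 639.8 and 811 CPM in T0, 1767, 1598 and 2067 CPM in T7-RA and 1303, 1373 and 1400.3 CPM in T7+RA. For Igf2 the log2 fold change was 0.90 (SE 0.10, adjusted p = 1.49e-11) against T0 and -0.41 (SE 0.09, adjusted p = 9.44e-04) against T7-RA. Igf1 was at 4.14, 0 and 0 CPM in T0, 45.3, 26.9 and 47.9 CPM in T7-RA and 7.13, 2.68 and 3.43 CPM in T7+RA. T0 and T7+RA overlapped near the floor, and T7-RA was above both (log2 fold change -3.12, SE 0.43, adjusted p = 5.95e-08 in the direct test). Tgfb2, transforming growth factor beta 2, was at 321, 304 and 279 CPM in T0, 230.2, 249 and 235 CPM in T7-RA and 603, 595 and 603 CPM in T7+RA, highest with RA and lowest without it. For Tgfb2 the log2 fold change was 0.99 (SE 0.11, adjusted p = 1.16e-11) against T0 and 1.33 (SE 0.10, adjusted p = 1.95e-16) against T7-RA. Pdgfb and Vegfc, ligands of platelet-derived and lymphatic growth factor receptors, rose against T0 by 1.25 and 1.86 and were higher than in T7-RA by 1.98 and 1.28 on the log2 scale. Calls lost with 1 library left out were those of Pdgfb without T0 1 or T7+RA 3 (adjusted p from 0.00178 to 0.00181) against T0 and of Vegfc without any 1 library (adjusted p from 0.00124 to 0.0104) and Igf2 without T7+RA 1, T7+RA 2, T7+RA 3, T7-RA 1 or T7-RA 3 (adjusted p from 0.00489 to 0.0621) in the direct test.

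Of the binding proteins, Igfbp5, which binds insulin-like growth factors and is made by differentiating myoblasts, was at 53.8, 30.0 and 20.96 CPM in T0, 568, 554 and 716 CPM in T7-RA and 487, 417 and 502 CPM in T7+RA (log2 fold change 3.65, SE 0.20, adjusted p = 1.10e-15). Its day 7 groups did not overlap, T7-RA being the higher, and the direct test missed the threshold (adjusted p = 0.0695). Sfrp4, a secreted Wnt antagonist, was at 1.38, 9.38 and 0 CPM in T0, 8.35, 6.72 and 4.36 CPM in T7-RA and 27.1, 38.9 and 46.3 CPM in T7+RA (log2 fold change 3.35, SE 0.48, adjusted p = 6.33e-08 against T0). In the Notch pathway the ligand Jag1 went from 189, 218 and 249 CPM to 39.9, 56.4 and 30.9 CPM, and to 122, 109 and 74.1 CPM without RA. For Jag1 the log2 fold change was -2.32 (SE 0.19, adjusted p = 4.36e-16) against T0 and -1.24 (SE 0.20, adjusted p = 4.16e-06) against T7-RA. The receptor Notch3 was at 53.8, 50.7 and 98.5 CPM in T0, 118, 102 and 102 CPM in T7-RA and 18.5, 25.5 and 17.1 CPM in T7+RA, with every T7+RA culture below every other culture. For Notch3 the log2 fold change was -1.66 (SE 0.27, adjusted p = 1.78e-06) against T0 and -2.37 (SE 0.24, adjusted p = 4.93e-12) against T7-RA.

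Caveolae are small pits of the cell membrane, and genes of their coat were among those lowered. Of 19 genes for caveolae and annexins, 4 were raised and 7 lowered (median log2 fold change -0.28). Cavin1, the coat protein, was at 1247, 1197 and 1184 CPM in T0, 855, 968 and 948 CPM in T7-RA and 532, 626 and 614 CPM in T7+RA (log2 fold change -1.04, SE 0.09, adjusted p = 4.05e-14 against T0 and log2 fold change -0.65, SE 0.09, adjusted p = 2.77e-07 against T7-RA), and no group overlapped another. Cavin4, the muscle form, was raised (1.13 on the log2 scale). Anxa8, a calcium-dependent membrane binder, had 17.9, 20.6 and 23.1 CPM in T0, 11.9, 13.4 and 13.1 CPM in T7-RA and no count in any T7+RA library, at least 4.58-fold lower than in T0 over a floor of 3 counts per library. Anxa2 fell by 0.74 on the log2 scale. Hspb7, a small heat shock protein of heart and skeletal muscle, had 49.7, 31.9 and 37.7 CPM in T0, 38.2, 28.2 and 30.5 CPM in T7-RA and 1.43, 1.34 and 5.14 CPM in T7+RA. Only T7+RA was low, with 71 counts in T0 and 5 in T7+RA. For Hspb7 the log2 fold change was -3.95 (SE 0.46, adjusted p = 2.31e-10) against T0 and -3.63 (SE 0.47, adjusted p = 9.75e-09) against T7-RA.

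Antioxidant genes had 4 of 26 raised and 4 lowered, beside 5.27% and 5.14% of all genes. Their raised count was 1 without T0 1, T0 3 or T7+RA 1. Nqo1, a quinone reductase, was at 381, 439 and 344 CPM in T0, 264, 261 and 272 CPM in T7-RA and 115, 138 and 156 CPM in T7+RA, lowest with RA. For Nqo1 the log2 fold change was -1.51 (SE 0.14, adjusted p = 5.34e-14) against T0 and -0.96 (SE 0.14, adjusted p = 2.74e-07) against T7-RA. B2m, the light chain of class I antigen-presenting molecules, was at 218, 188 and 169.8 CPM in T0, 441, 464 and 487 CPM in T7-RA and 858, 801 and 768 CPM in T7+RA, with no overlap among the groups. For B2m the log2 fold change was 2.06 (SE 0.11, adjusted p = 8.99e-24) against T0 and 0.80 (SE 0.10, adjusted p = 4.74e-09) against T7-RA. Prrx2, a homeobox factor of mesenchyme, fell from 89.7, 124 and 96.4 CPM to 15.7, 20.1 and 22.3 CPM (log2 fold change -2.40, SE 0.26, adjusted p = 2.16e-11). Beside the 5.27% raised and 5.14% lowered over all genes, there were 3 raised and 0 lowered of 18 citrate cycle genes, 3 raised and 0 lowered of 35 proteasome genes, 2 raised and 2 lowered of 31 homeobox genes and 2 raised and 1 lowered of 19 interferon response and antigen presentation genes. There were likewise 4 raised and 2 lowered of 31 genes of endoplasmic reticulum folding and amino acid stress, 1 raised and 2 lowered of 38 ion channel and aquaporin genes and 2 raised and 3 lowered of 20 genes of small heat shock proteins and the dystrophin complex. With 1 library left out, each of these 7 lists had 0 to 4 calls in either direction.

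**Figure D5:**
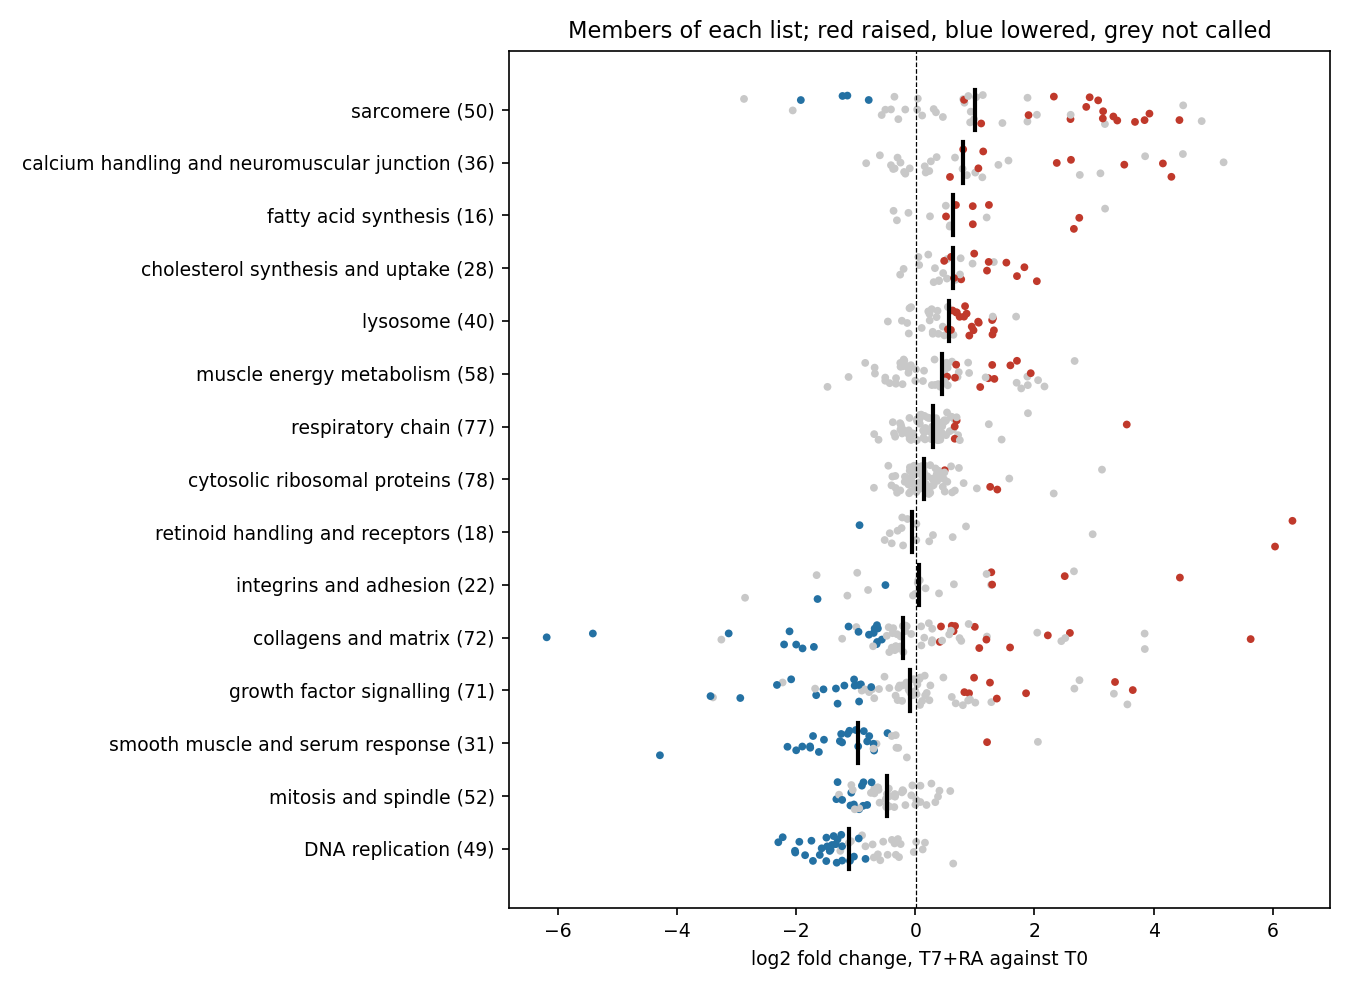
Fitted log2 fold change, T7+RA against T0 (x axis), of every measured member of 15 gene lists (number of members in parentheses), raised in red, lowered in blue and not called in grey, with the list's median as a bar. The bars run from 1.00 for sarcomere genes to -1.11 for DNA replication genes, and matrix genes spread over both sides.

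The direct test also picked out genes that moved in opposite directions in the weeks with and without RA. By the rule, a gene was called against T0 in both weeks with opposite signs and called between T7+RA and T7-RA, which 13 genes met. Both changes are measured against the same T0 cultures. Higher with RA and lower without it were Adamts8, Gdpd5, Akap12, Crispld2, Itga3, St3gal1, Prickle1, Bcar1 and Ncam1. Adamts8, a secreted metalloproteinase, was at 88.3, 99.4 and 98.5 CPM in T0, 34.6, 34.9 and 30.5 CPM in T7-RA and 596, 636 and 583 CPM in T7+RA and no group overlapped another. For Adamts8 the log2 fold change was 2.67 (SE 0.13, adjusted p = 2.29e-26) against T0 and 4.17 (SE 0.15, adjusted p = 1.22e-33) against T7-RA. Akap12, a scaffold for protein kinase A, was at 341, 358 and 388 CPM in T0, 136, 169 and 151 CPM in T7-RA and 1706, 1788 and 1666 CPM in T7+RA (log2 fold change 3.50, SE 0.12, adjusted p = 3.39e-35 in the direct test). Gdpd5, a glycerophosphodiesterase, was at 59.3, 56.3 and 52.4 CPM in T0, 33.4, 28.2 and 23.2 CPM in T7-RA and 339, 349 and 343 CPM in T7+RA (log2 fold change 3.58, SE 0.16, adjusted p = 2.02e-28 in the direct test). Itga3, a laminin receptor chain, was at 190.4, 148 and 166 CPM in T0, 104, 80.6 and 105 CPM in T7-RA and 401, 415 and 418 CPM in T7+RA, and its 3 groups did not overlap (log2 fold change 2.09, SE 0.13, adjusted p = 2.90e-20 in the direct test).

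Lower with RA and higher without it were Aqp1, Olfml2b, Svep1 and Cav1. Aqp1, the water channel, was at 69.0, 33.8 and 50.3 CPM in T0, 175, 209.6 and 193 CPM in T7-RA and 4.28, 8.05 and 8.57 CPM in T7+RA. T7-RA cultures were above and T7+RA cultures below every T0 culture (log2 fold change -2.90, SE 0.34, adjusted p = 3.57e-10 against T0, log2 fold change 1.87, SE 0.18, adjusted p = 2.13e-13 for T7-RA against T0, and log2 fold change -4.76, SE 0.26, adjusted p = 4.53e-24 in the direct test). Cav1, caveolin 1, the scaffold of caveolae, had the smallest difference, at 329.7, 336 and 259.9 CPM in T0, 391, 449 and 452 CPM in T7-RA and 192, 203 and 214 CPM in T7+RA (log2 fold change -1.08, SE 0.12, adjusted p = 2.24e-11 in the direct test). Calls against T0 were lost for Cav1 without T0 1 or T7+RA 1 (adjusted p from 0.00149 to 0.00204), Crispld2 without T0 2, T7+RA 2 or T7+RA 3 (adjusted p from 0.00157 to 0.00284) and St3gal1 without T7+RA 1 (adjusted p = 0.00181). Cilp, cartilage intermediate layer protein, was close to the floor at T0 and rose only without RA, at 5.52, 3.75 and 4.19 CPM in T0, 38.2, 39.0 and 30.5 CPM in T7-RA and 0, 4.03 and 1.71 CPM in T7+RA (log2 fold change -4.07, SE 0.49, adjusted p = 9.67e-10 in the direct test). The unnamed gene model AABR07068316.1 (band 9q36) fell with RA, with 34 counts in T0 and 3 in T7+RA and 29.8, 29.6 and 39.2 CPM in T7-RA (log2 fold change -4.31, SE 0.52, adjusted p = 1.12e-09 in the direct test).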

How the data were processed

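RNA was extracted with TRIzol from H9c2 cultures (3 cultures per group, 5 groups, 15 libraries), made into stranded mRNA libraries (TruSeq) and sequenced in pairs. Per the paper's methods and the submitters' processing notes, the authors removed poor read ends, aligned to the rat build Rnor_6.0 (HISAT2) and used featureCounts for gene totals. The paper names Ensembl as the annotation. Its release, the tool versions, the strand setting and the handling of multi-mapping reads were not given in the sources used here. Members of near-identical gene families and genes that overlap are therefore uncertain. The deposited table holds raw counts and keeps genes with more than 20 counts in all (the smallest sum found was 21). It also holds 1 size in bases per gene, deposited with no definition (unit: other), which served to split genes by size and to compare levels between genes per length. The table covers 11574 genes, 11126 of them protein coding, and 1 has no symbol.

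Counts were analysed in R 4.3.3 with edgeR 4.0.16 (TMM, robust quasi-likelihood F test, 1 mean per group over all 15 libraries, Benjamini-Hochberg adjustment over all genes). The threshold of the study, an adjusted p under 0.001, defined a call. CPM are counts per 1000000 of the TMM-scaled library. All 15 libraries thus entered the estimate of each gene's spread, and the biological coefficient of variation common to all genes was 8.84%. Fits on only the 6 libraries of a comparison called 999 genes against T0 and 496 in the direct test. Genes with no count in any library of a group are given as lower bounds against a floor of 3 counts per library, and genes with few counts as a ratio of summed counts with an exact 95% interval, which covers counting error only. With 3 against 3 cultures an exact permutation test of 1 gene cannot go below p = 0.1, so none is given. The pipeline was tested on simulated data.

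Named genes were the 14 called genes with the largest rise and the 14 with the largest fall against T0, the 8 in each direction against T7-RA (in both cases without overlap of the libraries and with a mean of at least 10 counts), genes called in opposite directions with and without RA, and members of the gene lists. Some genes that meet this rule are not reported here. Other named genes were chosen after their values were seen. The comparison, its members and all gene lists were chosen with earlier results of these data known. Motifs were searched in RefSeq promoters (GRCr8), matched by Ensembl gene identifier, or by symbol where the identifier gave no single match. Alternatives tried were a threshold of 0.05, DESeq2 1.42.0, limma-voom and limma-trend (limma 3.58.1), 2 other normalizations, 2 filters on low counts, the 6 libraries alone, a replicate block, thinning to the smallest library, an additive model and leaving out each library in turn.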

Additional observations from a re-analysis of the deposited data

Results flagged for a closer look

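The direct test of the 7-day cultures, T7+RA against T7-RA, is also the test of whether the change from T0 differed with and without RA. It gave 216 genes higher and 151 lower with RA. Among them, 13 genes were called against the shared T0 cultures in opposite directions in the weeks with and without RA.

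The log2 fold changes of T7+RA against T7-RA were 4.17 for Adamts8, 3.58 for Gdpd5, 3.54 for Crispld2, 3.50 for Akap12, 2.59 for St3gal1, 2.09 for Itga3, 2.00 for Prickle1, 1.36 for Bcar1 and 1.11 for Ncam1, all higher with RA. They were -4.76 for Aqp1, -3.52 for Olfml2b, -2.30 for Svep1 and -1.08 for Cav1, all lower with RA. All 13 genes met the rule again at an adjusted p under 0.05 and with a replicate block. DESeq2 left 10 of them (Crispld2, Gdpd5 and Cav1 dropped out), limma-voom 11 (without Gdpd5 and Cav1) and limma-trend 10 (without St3gal1, Crispld2 and Cav1). Relative log expression size factors and the filterByExpr filter each left 12 (without Cav1). Scaling by total counts alone left 11 (without Ncam1 and Gdpd5), thinning to the smallest library 10 (without Itga3, Crispld2 and Gdpd5) and a minimum of 10 counts in every library 10 (St3gal1, Aqp1 and Crispld2 were not tested). Groups of 3 cultures are too small for a test of single outlying libraries.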

How the results depend on the processing

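No call of a listed or named gene changed direction under any alternative run. At an adjusted p under 0.05, 2990 genes were called against T0 (1508 raised, 1482 lowered) and 858 between T7+RA and T7-RA, and at an unadjusted p under 0.05 there were 4138 and 1996. Leaving out each library in turn gave 858 to 1189 called genes against T0, 456 to 594 raised, 402 to 595 lowered, and 273 to 298 in the direct test. The lowest count against T0 came without T7+RA 1. Every other alternative was within 1.5 times the reported counts, from 942 (DESeq2) to 1325 (replicate block) against T0 and from 273 (at least 10 counts in every library) to 496 (only the 6 libraries) in the direct test. Between 70.9% and 100% of the reported calls were shared with each alternative, none of the shared calls in the opposite direction. The 44 genes named for the size of their change kept direction and call wherever they were tested, but a minimum of 10 counts in every library tested 5 of them. Over the listed and named genes, counted once per comparison, an alternative ended 0 to 92 calls and added 0 to 271, the most losses without T7+RA 1 and the most gains at 0.05. List medians near 0, such as that of the genes for retinoid handling and receptors, changed sign under some alternatives.

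No pairing of the cultures by the replicate numbers of the labels was seen, but the correlations given here cannot exclude one. The median gene had a mean count of 21.5 over the T0 and T7+RA libraries, so counting noise could hide a pairing. Deviations from the group means of same-numbered cultures correlated across genes at -0.0352 to 0.0481, no higher than between cultures with different numbers (-0.0603 to 0.0510). Samples did not all correlate best with their own number. A replicate block gave 1325 calls against T0 and 429 in the direct test, beside 1205 and 367 without it.

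Totals of 508397 to 825712 counts in the 9 libraries of T0, T7-RA and T7+RA limit all genes at a few CPM. The release of the Ensembl annotation and the strand setting were not given in the sources used here, so overlapping and antisense genes cannot be separated. Elapsed time, serum, RA and its solvent cannot be told apart in T7+RA against T0.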

Other observations

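The RefSeq promoters (GRCr8) of the gene lists also differed in other short motifs, which were chosen after expression values were seen and are given with no test. CCAAT stood on either strand in 36.2% of all 8063 promoters matched to a measured gene, in 84.2% of those of cholesterol genes (16 of 19), in 77.3% of those of mitosis and spindle genes (34 of 44) and in 30.6% of those of sarcomere genes (11 of 36). TATAAA stood in 5.98% of all promoters, in 25.0% of those of sarcomere genes (9 of 36) and in 2.27% of those of mitosis and spindle genes (1 of 44). The shares with TATAAA were 12.1% among genes higher with RA in the direct test (19 of 157), 8.3% among genes raised over the week with RA (37 of 446) and 10.0% among those lowered (43 of 429).

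Muscle genes that no list held also appeared in the week with RA, and they were picked after their values were seen. Trim72, a membrane repair protein of muscle, had no count in T0 and 8.55, 20.1 and 15.4 CPM in T7+RA, at least 2.75-fold higher over a floor of 3 counts per library (adjusted p = 2.78e-06). It stood at 11.9, 8.06 and 10.2 CPM in T7-RA and the direct test did not pass (adjusted p = 0.582). Ip6k3, an inositol hexakisphosphate kinase found mainly in muscle, had no count in T0 and 14.25, 5.37 and 17.1 CPM in T7+RA, at least 2.29-fold higher over the same floor (adjusted p = 1.54e-04).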
